A study of Mus musculus with 18 samples.

Results

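The 9 long noncoding RNAs Meg3, Rian, Mirg, Miat, Malat1, Neat1, Snhg6, Snhg11 and Gas5 were followed in ribosome immunoprecipitates of mouse hippocampal astrocytes and in the homogenates they came from. They were picked by gene symbol, and all 9 were listed among the 55291 symbols of every count and FPKM table. FPKM is a read count scaled by the library total and by a length fixed for each gene. The question was how much of each RNA came down with tagged ribosomes relative to the homogenate (a guide to the background of the immunoprecipitation, since most of these RNAs are nuclear), and how that changed after kainic acid (KA).

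All mice were wild-type C57BL/6J males, 6 weeks old at surgery, and all carried AAVDJ GfaABC1D-EGFP-Rpl10a, which puts an EGFP tag on the ribosomal protein Rpl10a under a fragment of the human GFAP promoter and was injected into the right CA3. The AAV control group had this virus alone and was collected 2 weeks later. The KA group was injected with KA in the right dentate gyrus 2 weeks after the virus and collected 14 days after KA, and the PBS group was injected with PBS after the virus, at a time not given in the sources used here. Each group had 3 samples (#1 to #3), each pooling 3 to 4 right hippocampi. Each homogenate was centrifuged and its supernatant kept. From this supernatant an IP library was made by anti-GFP pull-down and an input library from an aliquot. RNA left in the pellet is in neither library, and homogenate in this report means that supernatant. The KA and AAV control groups therefore differ in time after the virus and in surgery as well as in KA.

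Translating ribosome affinity purification enriches messages that are being read by ribosomes in the tagged cell type. Long noncoding RNAs that stay in the nucleus are not ribosome substrates, so their level in an IP is used as a guide to its background, while spliced snoRNA host transcripts that reach the cytoplasm are known to be engaged by ribosomes and to be degraded there. Meg3, Rian and Mirg are transcribed from the maternal allele of the imprinted Dlk1-Dio3 region and are strongly expressed in neurons. Malat1 concentrates in nuclear speckles, Neat1 builds paraspeckles and Miat (also called Gomafu) forms its own nuclear dots in neurons. Snhg6, Snhg11 and Gas5 carry snoRNAs in their introns, and Snhg11 is mainly neuronal.

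The genes lie at chr12:109541001-109571726 (Meg3), chr12:109603940-109661716 (Rian) and chr12:109729764-109749460 (Mirg), all on the plus strand of GRCm38 in GENCODE M21. Rian holds 13 annotated snoRNA genes and 4 miRNA genes, and Mirg holds 15 miRNA genes. The nuclear body RNAs lie on the minus strand at chr5:112213228-112229395 (Miat), chr19:5795690-5802672 (Malat1) and chr19:5824708-5845478 (Neat1). Snhg6 lies at chr1:9941959-9944118 on the minus strand with 1 snoRNA gene, Gas5 at chr1:161034422-161038539 on the plus strand with 10, and Snhg11 at chr2:158375638-158386145 on the plus strand with 2. GENCODE types Snhg11 as protein coding. The hosted small RNAs had rows of their own in the tables, with at most 20 counts in a library summed over a host (Rian, PBS IP #3). The values below are those of the host rows. Reads of small RNAs or unspliced precursors that fall within a host's annotated exons cannot be told apart from those of the spliced transcript. Meg3, Miat, Malat1, Snhg6 and Gas5 overlap a gene on the opposite strand (Gm26906, Gm26953, Gm37376, Mcmdc2 and Zbtb37), and Rian overlaps Gm26945 on its own strand. Whether reads were counted by strand is not given in the sources used here, so reads of these pairs cannot be told apart.

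Malat1 and the long form of Neat1 share a 3′ end that sets them apart from the other members and from ordinary mRNAs. Both are cut at their 3′ end in place of polyadenylation and are known to be kept stable by a triple helix, in which a genomically encoded A-rich tract pairs with U-rich stretches upstream. The 100 bases that end at this tract are shown for both, on the minus strand of GRCm38.p6, at chr19:5795982-5796081 (Malat1) and chr19:5824708-5824807 (Neat1). Capitals mark the motifs TTTCTTTTC, TTTTGCTTT and AAAGCAAAA, searched on the transcript strand.
Malat1: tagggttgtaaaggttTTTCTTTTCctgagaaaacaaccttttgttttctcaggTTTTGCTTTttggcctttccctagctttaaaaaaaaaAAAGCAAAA
Neat1: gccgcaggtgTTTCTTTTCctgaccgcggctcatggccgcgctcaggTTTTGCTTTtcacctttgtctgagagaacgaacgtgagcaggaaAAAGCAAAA
Of 141767 GENCODE M21 transcripts, 2 (0.00141%) held the 3 motifs in this order in a window of 100 bases, one of each gene. The RefSeq gene model of Neat1 ends at the tract, while that of Malat1 runs on for 292 bases, through the small tRNA-like RNA that is cut from it. The annotated window is therefore a description of the genes, and how well either RNA entered the libraries depends on a selection step (poly(A) or rRNA depletion) that is not given in the sources used here.

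At the other end of the transcripts, the first 50 transcribed bases are shown for 5 members, because a C followed by pyrimidines at the first base marks transcripts of the 5′ terminal oligopyrimidine kind, to which Gas5 is known to belong and whose entry into ribosomes follows growth signals. The sequences are from the RefSeq table on GRCm38.p6, which held 9 start sites of 7 of the 9 members (Snhg6 and Neat1 had no entry). Capitals mark the first 4 bases.
Gas5: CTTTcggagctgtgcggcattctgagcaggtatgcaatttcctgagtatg
Miat: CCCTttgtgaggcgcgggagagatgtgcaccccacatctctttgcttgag
Meg3: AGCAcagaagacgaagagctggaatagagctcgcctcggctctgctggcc
Malat1: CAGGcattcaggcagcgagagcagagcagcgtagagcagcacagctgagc
Snhg11: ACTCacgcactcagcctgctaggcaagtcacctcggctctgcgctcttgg
These stretches lie at chr1:161035166-161035215 (Gas5, the downstream of its 2 starts), chr5:112228899-112228948 (Miat, minus strand), chr12:109540996-109541045 (Meg3, the upstream of its 2 starts), chr19:5802623-5802672 (Malat1, minus strand) and chr2:158375713-158375762 (Snhg11). A C followed by at least 3 bases that are each C or T stood at this Gas5 start, at the Miat start and at the Mirg start, and at 1236 of the 32851 starts in the table (3.76%). The starts of Meg3, Rian, Malat1 and Snhg11 did not have it.

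Library totals ranged from 7991681 to 16032180 counts. Run 1 held samples #1 and #2 of KA and AAV control, run 2 held their samples #3, and run 3 held all PBS samples, so run and PBS group cannot be told apart. The PBS IP libraries stood apart in breadth, with 27150 to 30772 symbols at a count of 1 or more against 22979 to 25238 in the other 15 libraries. The 9 RNAs together took 0.147% of the counts in KA IP #1 and 3.35% in PBS IP #3, the lowest and the highest of the 18 libraries. In the IP, sample #3 was the highest of its group for 9 of 9 members in the AAV control group, 9 of 9 in the KA group and 8 of 9 in the PBS group. Of the astrocyte markers, 9 of 9 genes were higher in IP than in input in each group (edgeR, adjusted p under 0.05), with a median log2 fold change of 3.25 in the AAV control, 2.99 in the PBS and 2.01 in the KA group. Neuron markers were lower in IP for 8 of 8 genes in the AAV control and PBS groups and 7 of 8 in the KA group. Oligodendrocyte markers went against the astrocyte label in the KA group, where 5 of 5 were higher in IP (median log2 fold change of 1.35), whereas 0 of 5 were higher in the AAV control and PBS groups. Counts of bulk tissue cannot tell fewer cells of a type from less RNA per cell.

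**Figure D1:**
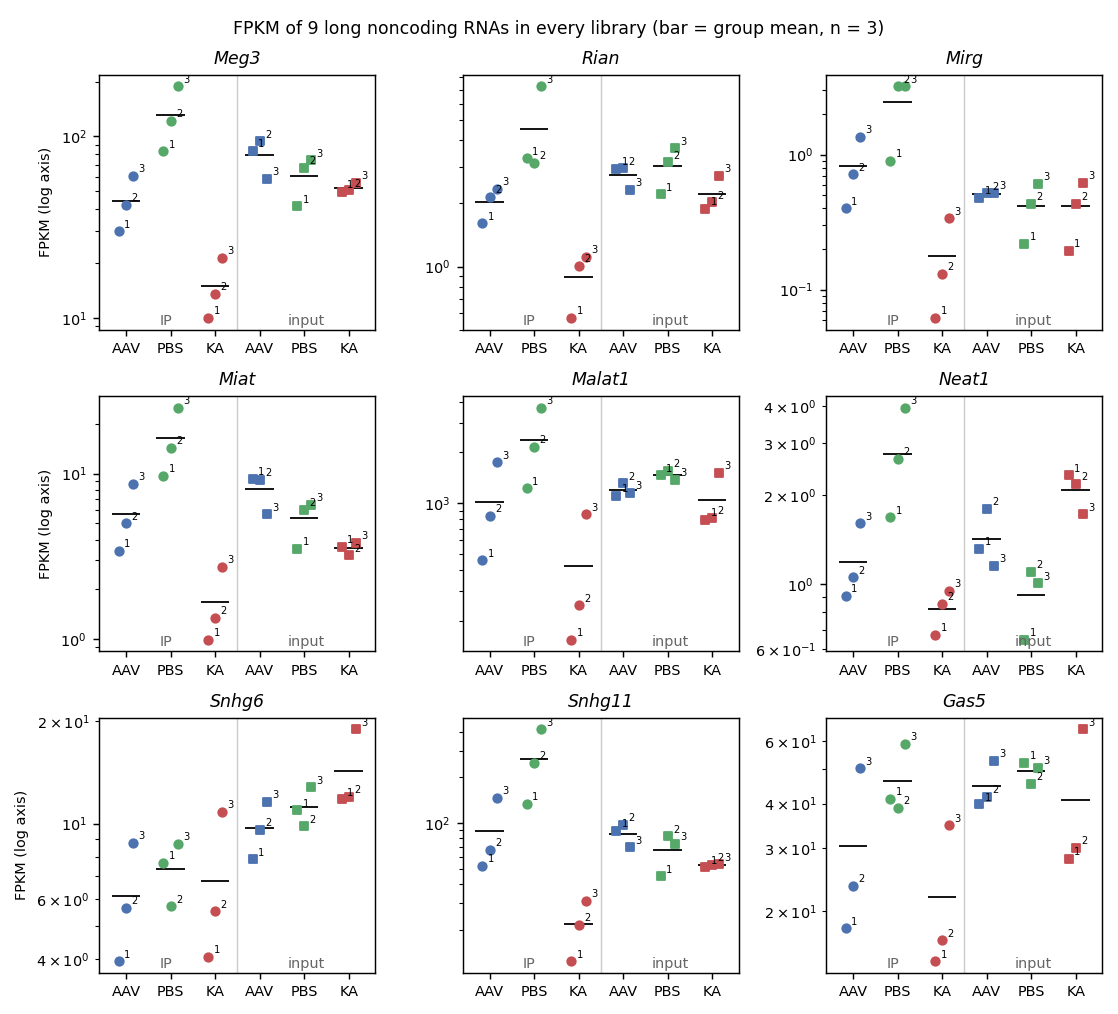
FPKM (log axis) of each of the 9 RNAs in the 18 libraries; circles are IP and squares input libraries, numbers give the sample, colours the group (AAV control blue, PBS green, KA red) and black bars the group mean of 3. The KA IP libraries have the lowest group mean for every RNA except Snhg6, and the PBS IP libraries the highest for every RNA except Snhg6 and Gas5.

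Among the RNAs of the imprinted Dlk1-Dio3 region, Meg3 was lowest in the KA IP libraries and highest in the PBS IP libraries. Meg3 FPKM in IP was 30.1, 41.9 and 60.6 in AAV control #1 to #3, 82.8, 122 and 189 in PBS #1 to #3, and 9.99, 13.6 and 21.4 in KA #1 to #3. In input it was 83.4, 94.0 and 58.5 in the AAV control, 41.1, 67.2 and 73.8 in the PBS and 49.6, 50.6 and 55.7 in the KA group. The 3 IP groups did not overlap, and the KA input values lay below all AAV control input values and within the range of the PBS input values. The IP to input ratio of Meg3, taken within each homogenate, was 0.614 ± 0.368 (SD, n = 3) in the AAV control, 2.13 ± 0.386 in the PBS and 0.284 ± 0.0926 in the KA group. The median ratio of all genes tested was 0.896 ± 0.0323, 0.928 ± 0.114 and 0.865 ± 0.00903, so Meg3 moved from the 24.2nd percentile of genes in the AAV control group to the 88.6th in the PBS and the 1.42nd in the KA group.

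Rian and Mirg were much less abundant and followed the same order of groups in the IP. Rian FPKM in IP was 1.61, 2.16 and 2.36 in the AAV control, 3.29, 3.12 and 7.26 in the PBS and 0.567, 1.01 and 1.11 in the KA group, with no overlap of the 3 groups. Its IP to input ratio was 0.767 ± 0.235, 1.49 ± 0.496 and 0.403 ± 0.0976 (SD, n = 3). The length that the deposited FPKM of Rian imply is 1.75 times its exon length in GENCODE M21, whereas the implied lengths of the other 8 members equal theirs within 0.1%, so the FPKM of Rian are not on the same scale as those of the other members, though its ratios are unaffected. Mirg rested on few reads, with 5, 10 and 27 counts in the KA IP libraries and 105, 268 and 246 in the PBS IP libraries. Its ratio of 5.61 ± 1.68 in the PBS group was the highest of the 9 RNAs and lay at the 98.2nd percentile of the genes tested, against 1.60 ± 0.904 in the AAV control and 0.389 ± 0.136 in the KA group. The 3 protein-coding genes of the region, Dlk1, Rtl1 and Dio3, summed to at most 4.24 FPKM in a library, and none had 5 counts in every library.

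Of the RNAs of nuclear bodies, Malat1 was the most abundant member by far. Malat1 FPKM in IP was 457, 841 and 1743 in the AAV control, 1224, 2155 and 3684 in the PBS and 155, 247 and 859 in the KA group. In input it was 1103, 1309 and 1152 in the AAV control, 1462, 1550.0 and 1369.7 in the PBS and 796, 819.8 and 1512 in the KA group. KA IP #3 lay above both KA IP #1 and #2 by more than these differed, and it overlapped the AAV control IP values but not the PBS IP values. The IP to input ratio was 0.856 ± 0.579 in the AAV control, 1.64 ± 0.951 in the PBS and 0.355 ± 0.193 in the KA group (SD, n = 3).

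Miat and Neat1, at a lower level, gave ratios close to each other in each group. Miat FPKM in IP was 3.42, 5.01 and 8.66 in the AAV control, 9.73, 14.3 and 25.0 in the PBS and 0.995, 1.34 and 2.73 in the KA group, and these 3 groups did not overlap. Its ratio was 0.814 ± 0.625, 2.99 ± 0.767 and 0.469 ± 0.223 (SD, n = 3). Neat1 FPKM in IP was 0.909, 1.05 and 1.60 in the AAV control, 1.68, 2.66 and 3.95 in the PBS and 0.670, 0.855 and 0.944 in the KA group. The PBS IP values of Neat1 lay above all others, whereas those of the KA and AAV control groups overlapped. The Neat1 ratio was 0.892 ± 0.441, 2.98 ± 0.827 and 0.410 ± 0.132.

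The snoRNA hosts divided. Snhg11 FPKM in IP was 52.4, 66.8 and 147 in the AAV control, 134, 249 and 415 in the PBS and 12.4, 21.5 and 31.0 in the KA group. Its ratio was 1.13 ± 0.855, 3.89 ± 1.53 and 0.407 ± 0.167 (SD, n = 3), the same order of groups as for Meg3. Gas5 and Snhg6 had the narrowest span between groups. Gas5 had ratios of 0.654 ± 0.263 in the AAV control, 0.939 ± 0.201 in the PBS and 0.534 ± 0.0170 in the KA group, with IP FPKM of 17.9, 23.5 and 50.2, of 41.3, 39.0 and 59.0, and of 14.5, 16.5 and 34.7. Snhg6 had ratios of 0.617 ± 0.130, 0.656 ± 0.0633 and 0.460 ± 0.113, below 1 in all 9 homogenates, and its IP FPKM ranged from 3.95 to 10.8 with overlap of all 3 groups. Snhg6 was counted with 42 to 221 reads a library.

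**Figure D2:**
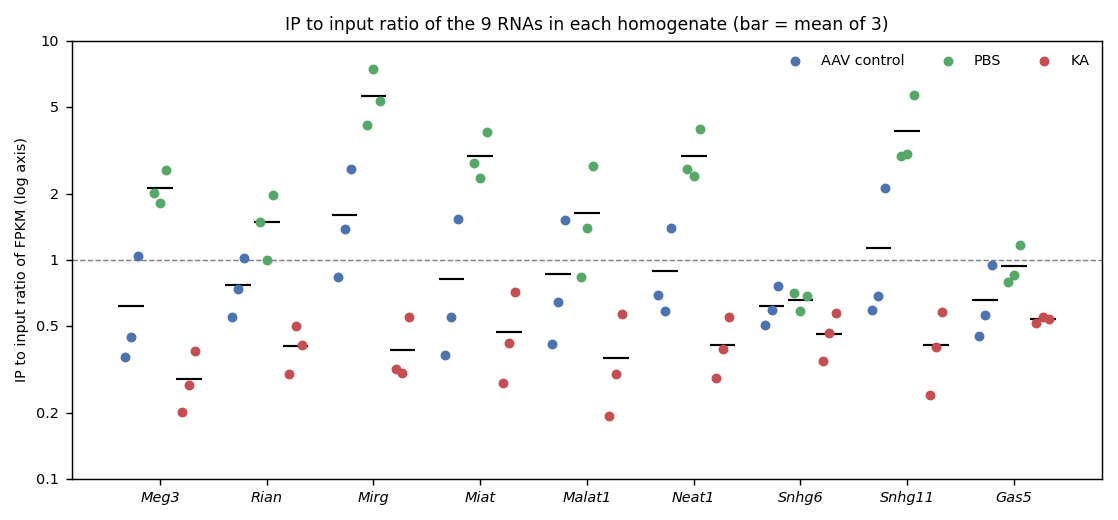
IP to input ratio of FPKM (log axis) of each RNA in each homogenate, by group; points are the 3 homogenates, black bars their mean and the dashed line a ratio of 1. The 27 KA values lie between 0.194 and 0.712, all below 1, whereas Meg3, Mirg, Miat, Neat1 and Snhg11 lie above 1 in all PBS homogenates.

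Over the 9 RNAs and 3 homogenates of a group, the 27 ratios ran from 0.361 to 2.60 in the AAV control, from 0.584 to 7.42 in the PBS and from 0.194 to 0.712 in the KA group. The median of the 9 was 0.502, 0.589 and 1.40 in AAV control #1, #2 and #3, 2.01, 1.82 and 2.69 in PBS #1 to #3, and 0.288, 0.401 and 0.549 in KA #1 to #3. AAV control #3, from run 2, was the sample of its group with a median above 1. Between the KA and PBS groups the ratios of 9 of 9 members did not overlap, all lower in KA, in a comparison in which 46.9% of the 9305 genes tested did not overlap (2408 of them lower in KA). Between the KA and AAV control groups 4 of 9 did not overlap (Rian, Mirg, Neat1 and Snhg11, all lower in KA), against 48.7% of 9180 genes (2493 of them lower in KA).

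IP was tested against input within each group with edgeR's quasi-likelihood test, on genes with FPKM above 1 in all 6 libraries and with Benjamini-Hochberg adjustment over all of them. In the AAV control group 0 of 7 members tested passed an adjusted p of 0.05, where 39.7% of all genes did. At an unadjusted p under 0.05 that fit held 4756 of 9961 genes, and DESeq2 and limma-voom also called 0 members. With the homogenate as a block, Snhg6 (log2 fold change -0.53 ± 0.19 SE, adjusted p = 0.0387) and Gas5 (-0.53 ± 0.20, adjusted p = 0.0464) were lower in IP. Without AAV control IP #3, the run 2 sample, 4 members were called.

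In the PBS group 5 of 7 members were called, against 56.3% of genes. Higher in IP were Snhg11 (log2 fold change 2.10 ± 0.37 SE, adjusted p = 0.000471), Miat (1.72 ± 0.27, adjusted p = 0.000183), Meg3 (1.23 ± 0.33, adjusted p = 0.0068) and Rian (0.69 ± 0.24, adjusted p = 0.0258). Snhg6 was lower (-0.48 ± 0.18, adjusted p = 0.043). Malat1 (0.77 ± 0.50, adjusted p = 0.204) did not pass, and Gas5 had a difference of 0.02 ± 0.17. With DESeq2, Malat1 was called higher in IP (adjusted p = 0.00891) and Snhg6 was not called (adjusted p = 0.0605). Snhg6 also failed with library totals (adjusted p = 0.0638), in the fit of all 18 libraries (adjusted p = 0.355, edgeR) and without PBS IP #2 or any one of the PBS input libraries. Mirg and Neat1 failed the FPKM filter, and in the edgeR fit of all genes with a count they were higher in IP, by 2.58 ± 0.25 (adjusted p = 9.09e-23) and 1.60 ± 0.20 (adjusted p = 1.07e-14). The p-values of this unfiltered fit are not on the scale of those with the filter, here and below. For Snhg11 its adjusted p was 2.09e-09 against 0.000471 with the filter, and for Snhg6 0.0489 against 0.043. Rian failed with library totals and without PBS IP #3, PBS input #1 or PBS input #2, and without PBS input #1 or without PBS input #2, 3 members were called.

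In the KA group 2 of 5 members tested were called, both lower in IP, against 34.4% of genes. These were Meg3 (log2 fold change -1.55 ± 0.32 SE, adjusted p = 0.00716) and Snhg11 (-1.04 ± 0.34, adjusted p = 0.044). Malat1 (-1.04 ± 0.67), Snhg6 (-0.83 ± 0.42) and Gas5 (-0.67 ± 0.48) had adjusted p of 0.264, 0.162 and 0.315. IP and input of one number come from one homogenate, and with that block all 5 were called: Malat1 at -1.42 ± 0.30 (adjusted p = 0.00374), Snhg6 at -0.89 ± 0.17 (adjusted p = 0.00241) and Gas5 at -0.68 ± 0.08 (adjusted p = 0.000102). In the edgeR fit without the filter 8 of 9 were called lower in IP, among them Rian (-0.99 ± 0.17, adjusted p = 1.3e-07), Miat (-0.74 ± 0.18, adjusted p = 0.000451) and Neat1 (-1.01 ± 0.18, adjusted p = 2.66e-07), while Mirg was at -0.91 ± 0.41 (adjusted p = 0.127). Without KA IP #3 all 5 tested were called, and without any one of the other 5 libraries 1 was. Scaling by library totals alone shifted the median log2 ratio of all genes by -0.15 in the AAV control, -0.12 in the PBS and -0.22 in the KA group, and of the members' directions it turned that of Gas5 in the PBS group (-0.09).

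Within the IP, Meg3 and Snhg11 fell after KA against either control, Malat1 and Gas5 fell against PBS, and Snhg6 was not called against either. All of these calls depended on single libraries except those of Meg3 and Snhg11 against PBS. Against the AAV control IP, 2 of 5 members tested were called, where 20.1% of genes were, and both were lower: Snhg11 by a log2 fold change of -1.99 ± 0.53 SE (adjusted p = 0.0348) and Meg3 by -1.50 ± 0.42 (adjusted p = 0.0405). Malat1 had -1.19 ± 0.77 (adjusted p = 0.322), Gas5 -0.42 ± 0.52 (adjusted p = 0.616) and Snhg6 0.21 ± 0.48 (adjusted p = 0.802). A KA sample and the AAV control sample of its number shared a run, and with that number as a block Malat1 (-1.40 ± 0.23, adjusted p = 0.00508) and Gas5 (-0.39 ± 0.12, adjusted p = 0.0404) were also lower. No pairing by number beyond the run is known. With run alone as a covariate in edgeR, Malat1 was at -1.41 ± 0.29 (adjusted p = 0.00495) and Gas5 at -0.40 ± 0.14 (adjusted p = 0.0433). Within run 1 alone, with 2 samples a group, Malat1 was at -1.62 ± 0.28 (adjusted p = 0.000854), Meg3 at -1.54 ± 0.18 (adjusted p = 6.12e-05) and Snhg11 at -1.75 ± 0.22 (adjusted p = 0.000114), whereas leaving out KA #1, KA #2 or AAV control #2 from the unblocked fit left 0 calls. In the edgeR fit without the filter, Mirg (-2.06 ± 0.41, adjusted p = 1.67e-05), Miat (-1.59 ± 0.25, adjusted p = 4.8e-09) and Rian (-1.04 ± 0.24, adjusted p = 0.000295) were lower, and Neat1 was not (-0.40 ± 0.25, adjusted p = 0.374). The KA values lay below all AAV control values for 5 of 9 members (Meg3, Rian, Mirg, Miat and Snhg11). Of the 9729 genes tested, 37.0% did not overlap in either direction, 1964 lower and 1631 higher in KA.

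Against the PBS IP 4 of 5 members tested were called lower, where 37.0% of genes were called in either direction. The log2 fold change was -3.56 ± 0.50 SE for Snhg11 (adjusted p = 0.000561), -3.08 ± 0.43 for Meg3 (adjusted p = 0.000557), -2.39 ± 0.73 for Malat1 (adjusted p = 0.0259) and -1.02 ± 0.34 for Gas5 (adjusted p = 0.0371). Snhg6 was at -0.06 ± 0.36 (adjusted p = 0.904), a difference whose sign turned in the fit without the filter (0.14). Without the filter Mirg (-3.54 ± 0.32, adjusted p = 7.85e-26), Miat (-2.97 ± 0.26, adjusted p = 4.39e-27), Rian (-2.05 ± 0.25, adjusted p = 5.74e-14) and Neat1 (-1.49 ± 0.24, adjusted p = 9.49e-09) were also lower by edgeR. The same unfiltered fit gave Snhg11 an adjusted p of 3.43e-15 and Meg3 one of 2.2e-11, so these p-values do not rank RNAs across the fits. The KA values lay below all PBS values for 8 of 9 members, all but Snhg6. Of the 9847 genes tested, 46.0% did not overlap in either direction, 2291 lower and 2240 higher in KA. The Gas5 call was lost without KA #1, KA #2, PBS #1, PBS #2 or PBS #3 (edgeR adjusted p from 0.0545 to 0.122), with filterByExpr (adjusted p = 0.0533) and in the fit of all 18 libraries (adjusted p = 0.0731). The Malat1 call was lost without KA #1, KA #2 or PBS #3 (adjusted p of 0.0985, 0.105 and 0.0735), and without KA #2 or without PBS #3, 2 members were called. Both comparisons use the same KA libraries, and the PBS IP libraries are those that stood apart in breadth.

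**Figure D3:**
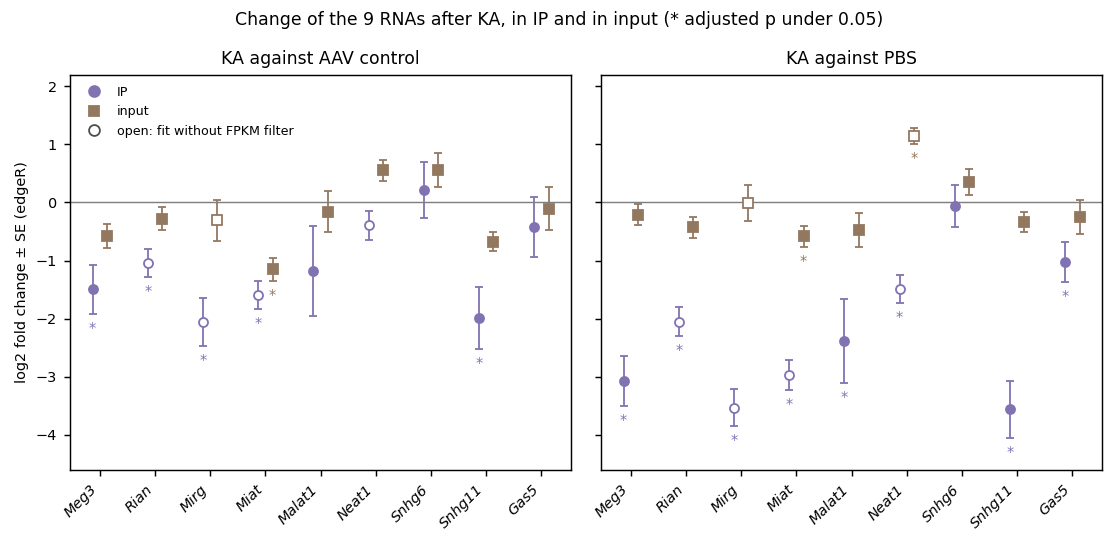
Log2 fold change ± SE (edgeR) of each RNA between the KA group and the AAV control group (left) or the PBS group (right), in IP (circles) and in input (squares); filled symbols are the fit with the FPKM filter, open symbols the fit without it for RNAs that did not pass, and asterisks mark an adjusted p under 0.05. The IP value of every RNA lies below its input value in both panels, though SE bars overlap for some, as for Gas5 and Snhg6 against the AAV control. Neat1 lies above 0 in input and below 0 in IP.

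The input is an aliquot of the supernatant of the centrifuged homogenate, taken before immunoprecipitation. Against the AAV control input, Miat alone of 8 members tested was called, where 4.49% of genes were, and it fell by 1.15 ± 0.19 SE on the log2 scale (adjusted p = 0.016). Miat FPKM in input was 9.28, 9.17 and 5.66 in the AAV control, 3.52, 6.05 and 6.50 in the PBS and 3.62, 3.21 and 3.83 in the KA group. The KA values were below all AAV control values and overlapped the PBS values. KA input lay below all AAV control input for 3 of 9 members (Meg3, Miat and Snhg11) and above it for 1 (Snhg6). Of the 10809 genes tested, 22.6% did not overlap in either direction. Snhg11 (-0.68 ± 0.17, adjusted p = 0.0655), Meg3 (-0.58 ± 0.21, adjusted p = 0.196), Neat1 (0.55 ± 0.18, adjusted p = 0.143) and Snhg6 (0.55 ± 0.29, adjusted p = 0.379) did not pass in the edgeR fit. With the sample number as a block Snhg11 (-0.67 ± 0.15, adjusted p = 0.023) was also lower and Neat1 (0.56 ± 0.14, adjusted p = 0.0455) higher. With run as a covariate 5 members were called in input and 4 in IP, and in the input these took in Meg3 (-0.57 ± 0.17, adjusted p = 0.0489) and Snhg6 (0.54 ± 0.15, adjusted p = 0.0398). DESeq2 also called Meg3 lower (adjusted p = 0.0478). Malat1 was at -0.16 ± 0.35 (adjusted p = 0.87), with KA input #3 above and KA input #1 and #2 below every AAV control value. Within run 1, 7 of 8 were called, Neat1 higher (0.53 ± 0.12, adjusted p = 0.00161) and 6 lower, Malat1 among them (-0.58 ± 0.11, adjusted p = 0.00015). Leaving out KA #1, KA #2, AAV control #1 or AAV control #2 left 0 calls, and without AAV control #3 there were 3.

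Against the PBS input, Miat was again the one member called of 7 tested, where 27.7% of genes were, at -0.58 ± 0.18 SE (log2, edgeR adjusted p = 0.0326). The count was 0 without KA #1, KA #2, PBS #2 or PBS #3, 3 without PBS #1 and 4 without KA #3. Neat1, which failed the filter in the PBS input, was at 2.33, 2.18 and 1.72 FPKM in the KA, 1.31, 1.80 and 1.15 in the AAV control and 0.647, 1.10 and 1.003 in the PBS input. All KA values of Neat1 lay above all PBS values. No other member was apart in this comparison, where 35.9% of the 10849 genes tested did not overlap in either direction. In the edgeR fit without the filter Neat1 was higher in KA by 1.15 ± 0.14 (log2, adjusted p = 1.95e-14). The lncRNA that builds paraspeckles was therefore higher in KA input than in PBS input and lower in KA IP than in PBS IP. Against the AAV control, edgeR did not call it in input (adjusted p = 0.143) or in IP (adjusted p = 0.374, without the filter). It was called higher in that input comparison with the block, with run as a covariate and within run 1. The PBS input values of Neat1 lay below all AAV control input values, and the PBS samples had a run of their own. Neuron markers in input had a median log2 fold change of -0.53 against PBS, with 5 of 8 lower, and of -0.37 against the AAV control, with 0 of 8 called, and microglia markers were higher for 6 of 6 in both, with medians of 1.81 and 1.96. Astrocyte markers in input were higher for 8 of 9 against PBS (median 0.90) and for 5 of 9 against the AAV control (median 0.84). The part of these marker changes in the input changes of Miat and Neat1 was not tested.

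Whether the IP to input ratio itself differed between groups was tested as the interaction of group and library kind in 12 libraries. Between the KA and PBS groups 2 of 5 members tested were called, where 25.5% of genes were: Snhg11 at -3.23 ± 0.53 SE (log2, edgeR adjusted p = 0.00114) and Meg3 at -2.87 ± 0.46 (adjusted p = 0.00101). Malat1 was at -1.91 ± 0.82 (adjusted p = 0.102), Gas5 at -0.77 ± 0.52 (adjusted p = 0.293) and Snhg6 at -0.43 ± 0.46 (adjusted p = 0.521). With the homogenate as a block Malat1 (-2.18 ± 0.56, adjusted p = 0.00868) and Gas5 (-0.78 ± 0.17, adjusted p = 0.00408) were called too, and Snhg6 was not (-0.49 ± 0.24, adjusted p = 0.123). Without KA #1 or without KA #3, 4 members were called. In the fit without the filter Mirg (-3.48 ± 0.43), Neat1 (-2.60 ± 0.27), Miat (-2.33 ± 0.27) and Rian (-1.56 ± 0.27) had adjusted p between 9.43e-19 and 9.93e-07 (edgeR).

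Between the KA and AAV control groups 0 of 5 members tested were called by the same test, where 13.2% of genes were, with 2472 of 9180 genes at an unadjusted p under 0.05 and 0 members also by DESeq2 and limma-voom. All 5 values were negative, from -0.30 ± 0.72 SE for Gas5 to -1.30 ± 0.60 for Snhg11 (adjusted p = 0.19). Within run 1, without the #3 samples, Snhg11 (-0.91 ± 0.26, adjusted p = 0.0144), Meg3 (-0.71 ± 0.21, adjusted p = 0.0193) and Malat1 (-1.03 ± 0.34, adjusted p = 0.0286) were called, while Gas5 turned to 0.15 ± 0.16. Without the filter Mirg (-1.77 ± 0.55, adjusted p = 0.0274) and Snhg11 (-1.19 ± 0.35, adjusted p = 0.0186) were called.

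Between the PBS and AAV control groups, neither of which had KA, 0 of 7 members tested passed in the IP with the FPKM filter. Meg3 was at 1.57 ± 0.42 SE, Snhg11 at 1.56 ± 0.52, Miat at 1.50 ± 0.40, Malat1 at 1.19 ± 0.64 and Rian at 1.15 ± 0.30 (log2, PBS against AAV control), with edgeR adjusted p of 0.436 or above. In that comparison 0.0% of the 10667 genes tested were called and 1153 had an unadjusted p under 0.05, while DESeq2 called 16 genes, 1 of them a member (Meg3, adjusted p = 0.0176). In the edgeR fit without the filter Mirg (1.46 ± 0.30, adjusted p = 0.000666), Miat (1.38 ± 0.29, adjusted p = 0.00111) and Neat1 (1.09 ± 0.27, adjusted p = 0.0142) were higher in the PBS IP. That fit called 261 of 37249 genes, where the fit with the filter called 0. The PBS values lay above all AAV control values for 4 of 9 members (Meg3, Rian, Miat and Neat1). Of the 10667 genes tested, 13.4% did not overlap in either direction, 521 higher and 910 lower in PBS. Neat1 did not pass the filter of that set. Without AAV control IP #3, 5 members were called. In the input 0 members and 0.0% of 10924 genes were called (901 at an unadjusted p under 0.05, 0 members by DESeq2), and the 7 members tested ran from -0.56 to 0.33. Without AAV control input #3, 3 were called.

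The same order of group means was seen in other noncoding RNAs, and also in microglia markers, endothelial markers and mitochondrially encoded mRNAs. In the last of these the AAV control and PBS means were close. The order was not seen in the markers of neurons, in which several of the 9 RNAs are mainly expressed. Of 13 other snoRNA host genes with 5 counts in every library, the median IP to input ratio averaged 0.990 in the AAV control, 1.52 in the PBS and 0.582 in the KA group. For 11 other nuclear noncoding RNAs it was 0.988, 1.39 and 0.737, and for 10 further long noncoding RNAs 0.683, 1.03 and 0.468. The homogenates of the PBS and AAV control groups overlapped in each of these lists, and for the other nuclear noncoding RNAs AAV control #1 (0.646) lay below all KA homogenates. Neuron marker mRNAs had 0.183, 0.237 and 0.437, that is, their ratio was highest in the KA group, where the 9 RNAs had theirs at the lowest. Mitochondrially encoded mRNAs, which are translated on mitochondrial ribosomes without Rpl10a, had 0.254, 0.260 and 0.0954, microglia markers 0.186, 0.262 and 0.0808 and endothelial markers 0.444, 0.537 and 0.177. Oligodendrocyte markers had 0.666, 0.657 and 2.16. The mRNAs of 14 proteins that assemble with Neat1 in paraspeckles had 0.867, 0.904 and 0.880. The part of these marker shifts in the members' ratios was not tested.

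**Figure D4:**
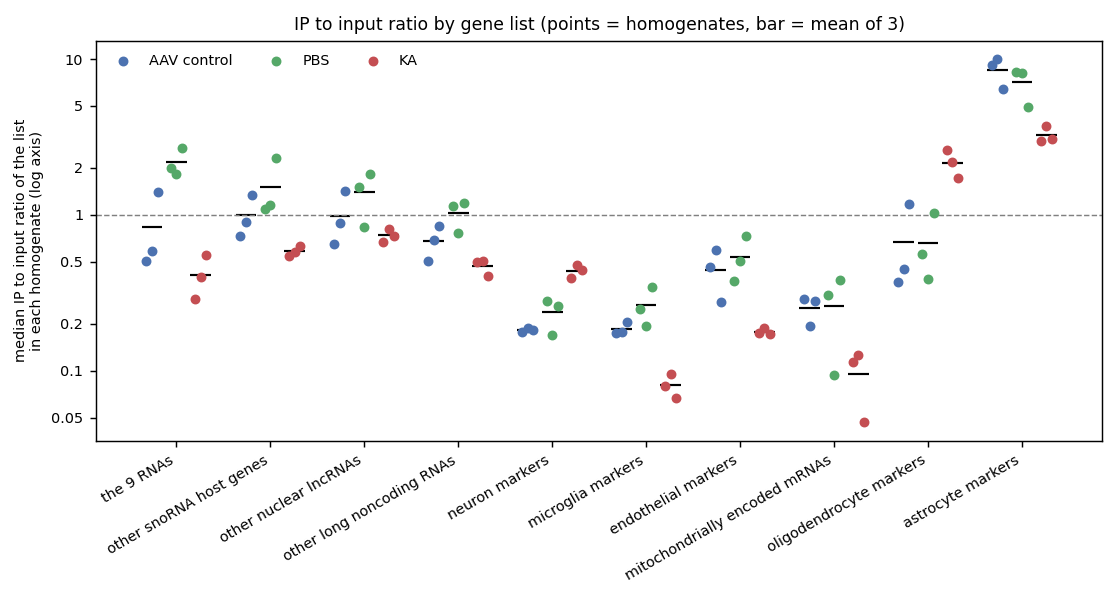
Median IP to input ratio of FPKM (log axis) of each gene list in each homogenate, by group; points are the 3 homogenates and black bars their mean. By group means the noncoding RNA lists and the microglia, endothelial and mitochondrially encoded mRNAs are lowest in KA and highest in PBS, and neuron markers are highest in KA. Single homogenates overlap, as for AAV control #1 among the other nuclear lncRNAs (0.646) and PBS #2 among the mitochondrially encoded mRNAs (0.0935).

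Of the other snoRNA host genes, Snhg20 was higher in PBS IP than in PBS input by 2.40 ± 0.26 SE (log2, edgeR adjusted p = 1.17e-05) and lower in KA IP than in PBS IP by -3.24 ± 0.42 (adjusted p = 0.000374). In all, 6 of 10 of these hosts tested were lower in KA IP than in PBS IP and 0 higher, where 37.0% of all genes were called in either direction. Their median was -0.99, against -0.01 for all genes. Against the AAV control IP 1 of 10 was lower (Snhg20, -2.17 ± 0.59, adjusted p = 0.0382), where 20.1% of all genes were called, and the median was -0.59. Of other nuclear noncoding RNAs, Pantr1 and Snhg14 fell against the AAV control IP, by -3.30 ± 0.34 (adjusted p = 0.000956) and -1.29 ± 0.23 (adjusted p = 0.00914), and Peg13, an imprinted RNA, rose by 0.87 ± 0.21 (adjusted p = 0.026), so the nuclear noncoding RNAs did not all move one way. The long noncoding RNA 2900097C17Rik was below its input in all 3 groups, with -1.83 ± 0.19, -1.80 ± 0.24 and -1.58 ± 0.15 (adjusted p from 6.11e-05 to 0.000307).

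Across all other genes that GENCODE M21 types as long noncoding, a set taken after the members' values were seen, 180 of 428 tested were higher and 43 lower in PBS IP than in PBS input. In the AAV control group it was 60 higher and 33 lower of 344, and in the KA group 24 higher and 42 lower of 267. Called in either direction were 52.1% in the PBS, 27.03% in the AAV control and 24.7% in the KA group. These shares lay below the 56.3%, 39.7% and 34.4% of all genes tested. Within the IP, 124 of 282 were lower and 10 higher in KA than in PBS, and 51 of 267 lower and 5 higher in KA than in the AAV control. Against PBS 47.5% were called in either direction, above the 37.0% of all genes tested. Against the AAV control it was 20.97%, close to the 20.1% of all genes tested. In the input the split was 50 lower and 32 higher of 413 against PBS and 5 lower and 5 higher of 406 against the AAV control. There 19.9% and 2.46% were called, below the 27.7% and 4.49% of all genes tested. These counts stand beside medians of 0.56 (IP against input in PBS), -0.69 (KA against PBS in IP) and -0.54 (KA against AAV control in IP), with -0.02 to 0.04 for all genes tested.

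Of all pairs of the 9 RNAs, Miat and Snhg11 were the most alike across the 18 libraries and Snhg6 and Snhg11 the least. Pearson's r of log2 CPM, a description over libraries that share groups, homogenates and runs, was 0.979 for Miat and Snhg11, 0.960 for Meg3 and Rian, 0.959 for Meg3 and Miat and 0.939 for Meg3 and Snhg11. Snhg6 had r of 0.149 with Snhg11 and 0.336 with Meg3, and its highest within the members was 0.755 with Gas5. Gas5 in turn ran from 0.409 with Neat1 to 0.900 with Malat1. Among the 9001 genes with FPKM above 1 in every library, which leave out Rian, Mirg, Miat and Neat1, the genes most like Snhg11 were Pabpn1, the nuclear poly(A) binding protein (0.961), Ogt, the O-GlcNAc transferase (0.961), and Rufy2 (0.959). Among the same genes Ogt led for Meg3 (0.943), followed by Hjurp (0.941), both below the r of Meg3 with Rian and Miat. For Malat1 the leading genes were Dhx30 (0.941), Ahi1 (0.941) and Rbm10 (0.931), a splicing regulator, and for Neat1 Wsb1 (0.917) and Taf15 (0.911). For Gas5 they were AU041133 (0.951), Rbm10 (0.923) and Schip1 (0.923). Snhg6 went with 2410006H16Rik (0.919) and Rps28 (0.910), which codes for a ribosomal protein.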

How the data were processed

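Counts and FPKM were given per gene symbol for 18 libraries. The authors aligned reads to mm10, and the submitters' processing notes name STAR, featureCounts and edgeR; versions, annotation release, strand setting and handling of multiply mapped reads are not given in the sources used here. Raw counts were deposited as whole numbers, and the deposited FPKM were computed by the authors from the library total and a fixed length per gene. From these, IP to input ratios were taken per homogenate, and differential tests used edgeR 4.0.16 under R 4.3.3 (the quasi-likelihood test, TMM, FPKM above 1 in all compared libraries, Benjamini-Hochberg over all genes tested, called at an adjusted p under 0.05), after the fit was tested on simulated data. Alternatives were DESeq2 1.42.0, limma-voom (limma 3.58.1), other scalings and filters, 1 fit of all 18 libraries, a replicate block, run as a covariate, run 1 alone and leaving out each library. The SE is the size of the fold change divided by the root of its F. Residuals of same-numbered libraries correlated at 0.155 to 0.752 between IP and input, which share a homogenate. They correlated at 0.348 to 0.551 between the KA and AAV control groups, in both kinds of library, and both sets of numbers were used as blocks. Between KA and AAV control the same numbers share a run, so these correlations cannot show a pairing by number beyond the run. The members and gene lists were chosen with earlier results of these data known. Named were the 9 members, at most 3 genes of a list with the smallest p in a comparison, and the 3 genes most correlated with each member over TMM log2 CPM (prior count 2). Of 55291 symbols 53292 matched a GENCODE M21 name, from which coordinates were taken. No 2 libraries of a group agreed within counting noise, and p-values measure the spread between the pooled samples.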

Additional observations from a re-analysis of the deposited data

Results flagged for a closer look

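Against the PBS group, KA changed the IP and the input differently for Meg3 (interaction of -2.87 ± 0.46 SE on the log2 scale, edgeR adjusted p = 0.00101, n = 3 homogenates a group) and for Snhg11 (-3.23 ± 0.53, adjusted p = 0.00114). For both, the KA IP libraries lay below the PBS IP libraries while the input libraries of these groups overlapped.

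For 5 RNAs the IP to input ratio was above 1 in each of the 3 PBS homogenates and below 1 in each of the 3 KA homogenates. The share of all genes in this position is not given here. Of the 9305 genes tested, 46.9% had KA and PBS ratios that did not overlap in either direction, 2408 of them lower in KA. That is a wider condition than lying on opposite sides of 1, and Mirg, Miat and Neat1 are not among those genes. The mean ratio was 2.13 in the PBS and 0.284 in the KA group for Meg3, 5.61 and 0.389 for Mirg, 2.99 and 0.469 for Miat, 2.98 and 0.410 for Neat1, and 3.89 and 0.407 for Snhg11. Of these RNAs, only Meg3 and Snhg11 passed the FPKM filter in both groups, and in the tests of IP against input both were higher in PBS IP and lower in KA IP. The interaction above tests a difference between the ratios, not their side of 1. For Mirg, Miat and Neat1 the values of the fit without the filter are given in the report. The PBS samples were sequenced in a run of their own, and the part of the run in these differences cannot be told apart from that of the group.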

How the results depend on the processing

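Counts of members called were 2 without and 5 with the replicate block (homogenate or sample number) for IP against input in KA, 0 and 2 in the AAV control, 2 and 4 for KA against the AAV control in IP, 1 and 3 in input, and 2 and 4 for the interaction against PBS; between KA and PBS, whose numbers do not pair (residual correlations from -0.29 to 0.11), the block gave 2 in input, and it changed no other count by over 1.5 times. The block raised the number of all genes called to 6102, 5336, 3356, 1101 and 3284 for IP against input in the AAV control and KA groups, KA against AAV control in IP and in input, and the interaction of these groups. Without the FPKM filter the counts were 8 (IP against input in KA), 6 and 2 (KA against AAV control in IP and input), 8 and 4 (KA against PBS in IP and input), 3 (PBS against AAV control in IP), and 2 and 7 (interaction against AAV control and PBS). More members are tested in that fit, and members tested by both also became called. For IP against input in KA the edgeR adjusted p of Malat1 went from 0.264 to 8.63e-05. That of Snhg6 went from 0.162 to 0.00383 and that of Gas5 from 0.315 to 0.00622. With filterByExpr they were 4 (IP against input in KA), 2 (KA against AAV control in input), 7 and 2 (KA against PBS in IP and input) and 6 (interaction against PBS). Library totals alone gave 3 for IP against input in PBS and made 39.8%, 40.6% and 30.9% of all calls higher in IP in the AAV control, PBS and KA groups, against 48.9%, 50.9% and 55.6% with TMM. DESeq2 gave 3 for KA against AAV control in input and 1 for PBS against AAV control in IP. A fit of all 18 libraries gave 1 for IP against input in KA and 0 for KA against AAV control and against PBS in input. Run as a covariate gave 4 in IP and 5 in input for KA against AAV control, and run 1 alone gave 7 in input and 3 for the interaction; the cause was not tested. Leaving out one library or homogenate in turn gave 0 to 4, 3 to 5 and 1 to 5 calls for IP against input in the AAV control, PBS and KA groups, 0 to 2 and 0 to 3 for KA against AAV control in IP and input, 2 to 4 and 0 to 4 for KA against PBS, 0 to 5 and 0 to 3 for PBS against AAV control, 2 to 4 for the interaction against PBS, and 0 throughout for that against the AAV control.

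Of the alternative fold changes of members, 853 kept their sign and side of the threshold, 67 passed and 44 failed it newly, and 24 turned sign, each of a value that was not called. For IP against input, leaving out one library gave Malat1 in the AAV control values from -0.78 (without IP #3) to 0.34 (without IP #1), Snhg11 -0.41 (without IP #3) to 0.56, and Gas5 in PBS -0.050 to 0.10; Gas5 in PBS was also at -0.089 with library totals, -0.082 without the filter and -0.072 with filterByExpr. For KA against AAV control, leaving out one library gave -0.40 to 0.65 for Snhg6 and -1.04 to 0.24 for Gas5 in IP, and -0.61 to 0.029 for Malat1 and -0.69 to 0.13 for Gas5 in input. Against PBS in IP, Snhg6 ran from -0.65 to 0.25, with 0.14 without the filter and 0.099 with filterByExpr. In the interaction against AAV control, Gas5 ran from -0.51 to 0.19, with 0.15 in run 1 alone. The IP to input ratio moved by less than 1 SD in 134 alternatives and by more in 1, Gas5 in KA, to 0.622 with TMM. Samples #3 held most of the highest IP values, and Mirg, Neat1 and Snhg6 are limited by their read numbers.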
